A study of Canis lupus familiaris with 24 samples.

Results

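Genes of type I collagen, of small proteoglycans and of fibroblasts were followed in canine B-cell lymphoma sampled by needle from lymph nodes. They were the 5 genes COL1A1, COL1A2, DCN, BGN and PDGFRB, out of 35908 accessions on the array. Their probes were found by matching the accession of each probe to the dog gene of that name. This gave 15 of 43603 probes, namely 4 for COL1A1, 6 for COL1A2, 2 for DCN, 1 for BGN and 2 for PDGFRB. All 15 were well above background on the 3 arrays of at least 1 dog and phase, as were 34550 probes in all, and were tested.

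The study set a drug-resistant phase against a drug-sensitive phase of the same animal in 4 dogs, with 3 one-colour arrays for each dog and phase and 24 arrays in all. Dog 1 was a male Shih Tzu aged 10 years, dog 2 a male Doberman aged 9 years, dog 3 a castrated male French Bulldog aged 3 years and dog 4 a spayed female French Bulldog aged 5 years. Both phases of every dog were B-cell lymphoma sampled from peripheral lymph nodes by fine needle, and the labels name neither the drugs nor the time between phases. There was no healthy control, and the labels do not say whether the 3 arrays of a group came from separate aspirates.

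Type I collagen, the main fibrous protein of connective tissue, is a triple helix of alpha 1 chains encoded by COL1A1 and an alpha 2 chain encoded by COL1A2. Decorin (DCN) and biglycan (BGN) are small leucine-rich proteoglycans that bind collagen fibrils, and PDGFRB is a receptor tyrosine kinase for platelet-derived growth factor that marks fibroblasts and pericytes. In lymph nodes such genes belong mainly to the stromal framework and capsule rather than to lymphoid cells, and a needle draws stroma unevenly.

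Signals are given as log2 of the processed signal minus log2 of the 75th percentile of the array, so 0 is the level of that percentile and values of different probes are not compared as levels. Between 71.0% and 80.9% of spots per array were well above background, and no spot was saturated. Arrays of 1 group had a median correlation of 0.997 over probes, against 0.983 between the phases of a dog and 0.959 between dogs. The B-cell markers MS4A1 and CD40 were well above background on all 24 arrays, and neither changed by 2-fold in any dog. Arrays lay on 7 slides. Dogs 1, 2 and 3 each had a slide with both phases. In dogs 1 and 3 it held all sensitive arrays and a single resistant array, and in dog 2 the reverse. The resistant arrays of dog 4 sat alone on 1 slide scanned in a session of its own, so in that dog slide, scan session and phase cannot be told apart.

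In the resistant phase COL1A2 fell in dogs 1, 2 and 3, by 8.76-fold, 2.97-fold and 2.62-fold on its brightest probe. Probes A_11_P051236 and A_11_P0000019905 of COL1A2 were called lower in the same dogs and A_11_P147118 in dogs 1 and 2. Its probes A_11_P147268 and A_11_P145878 were called in no dog. DCN fell in dogs 1, 2 and 3 on its brightest probe, by 5.62-fold in dog 1, at least 1.88-fold in dog 2 and 13.4-fold in dog 3. In dog 2 no resistant array of that probe was well above background. The dog 2 call ended under normexp background correction (-0.13) and on the raw signals of the authors' value table (-0.32). The other DCN probe was called in dogs 1 and 3 alone. COL1A1 fell by 3.80-fold in dog 2 and 2.71-fold in dog 3 on its brightest probe. The other probes of COL1A1 were called in neither of these dogs. Of all tested probes 1.42% were called lower in dogs 1, 2 and 3, and 3.24% in dogs 2 and 3. BGN and PDGFRB passed the threshold in no dog, and in dog 4 none of the 15 probes did. In bulk aspirates fewer cells of a type and less RNA per cell cannot be told apart.

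A probe was called within a dog at a Benjamini-Hochberg adjusted p under 0.05 in limma and a change of at least 2-fold. By this rule 7 of the 15 probes were called lower in dog 1, where 7.75% of all tested probes were. In dog 2, 6 of the 15 were called lower, against 10.1% of all probes. In dog 3, 6 of the 15 were called lower, against 5.45% of all probes. In dog 4, 0 of the 15 were called, against 1.57% of all probes called lower and 3.77% called higher. At an unadjusted p under 0.05 in limma there were 6 of the 15 in dog 4, below the 54.0% of all probes there. Under normexp background correction the counts were 4, 3, 4 and 0 in dogs 1 to 4. Over all 34550 tested probes that correction gave 715, 1593, 719 and 112 lower calls and 357, 425, 70 and 89 higher calls. No member probe was called higher in any dog, against 3.57%, 3.53% and 1.28% of all probes in dogs 1, 2 and 3. The median change of the 15 probes was -0.65, -0.32, -0.48 and -0.08 in dogs 1 to 4, beside -0.05, 0.10, 0.03 and 0.05 over all probes. These within-dog p-values measure only the spread between arrays, which may be technical.

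**Figure D1:**
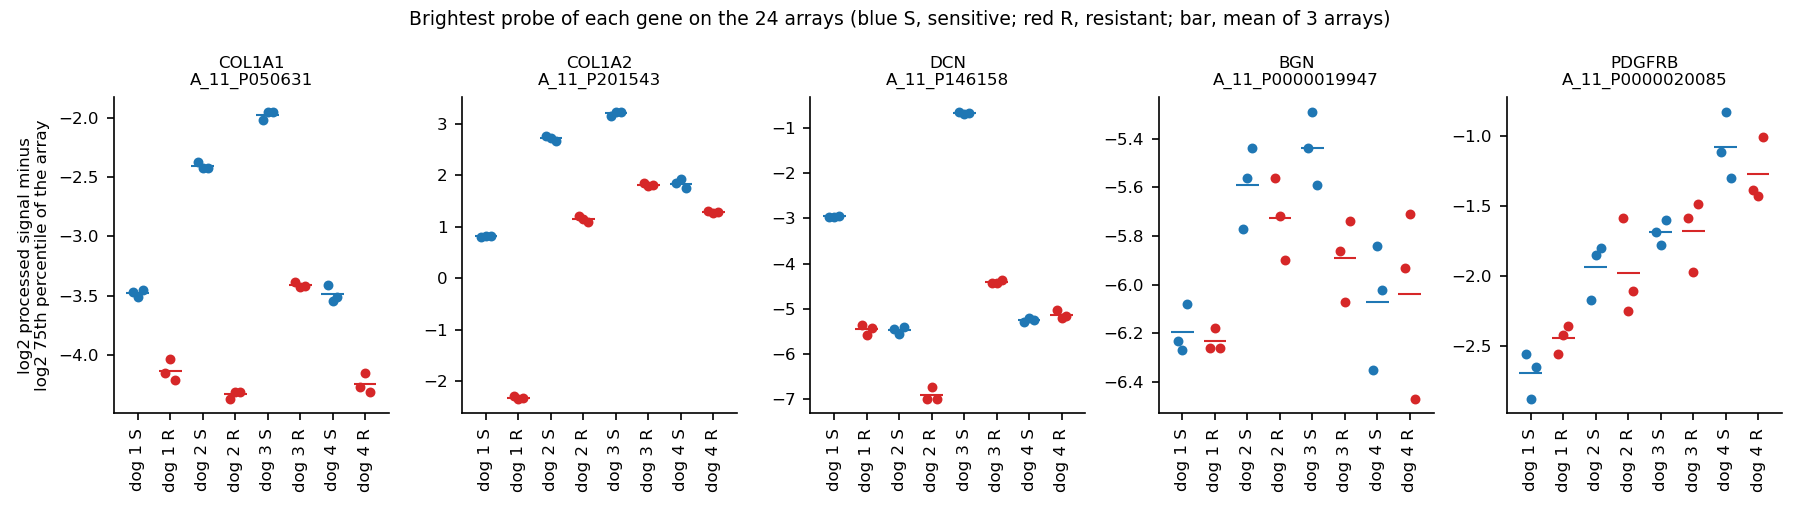
Scaled log2 signal (y axis, its own range in each panel) of the brightest probe of COL1A1, COL1A2, DCN, BGN and PDGFRB on each of the 24 arrays, by dog and phase (x axis; S sensitive in blue, R resistant in red; points are arrays, bars are means of 3). The sensitive arrays of COL1A1 and COL1A2 lie above the resistant arrays of the same dog in all 4 dogs, while those of PDGFRB overlap with them in dogs 2, 3 and 4 and meet them at -2.56 in dog 1.

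COL1A1, the alpha 1 chain, was read most brightly by probe A_11_P050631. In dog 1 its 3 sensitive arrays read -3.47, -3.51 and -3.45 and its 3 resistant arrays -4.15, -4.03 and -4.21. In dog 2 the sensitive arrays read -2.37, -2.42 and -2.42 and the resistant arrays -4.37, -4.31 and -4.31. The phases did not overlap in either dog, and the gap was wider in dog 2. In dog 3 the sensitive arrays read -2.02, -1.95 and -1.95 and the resistant arrays -3.38, -3.43 and -3.42. In dog 4 the sensitive arrays read -3.41, -3.54 and -3.51 and the resistant arrays -4.27, -4.15 and -4.31. Again no resistant array reached a sensitive array of its dog, a pattern that 33.6%, 27.6%, 26.5% and 25.0% of all tested probes showed in dogs 1 to 4. Resistant minus sensitive was -1.93 in dog 2 (SE 0.05, limma adjusted p 1.35e-16) and -1.44 in dog 3 (SE 0.05, adjusted p 3.59e-14). The dog 3 call ended under normexp, at -0.93. It was -0.65 in dog 1 (adjusted p 1.63e-09) and -0.76 in dog 4 (adjusted p 5.65e-10), both under the 2-fold threshold. Within the slide that held both phases, the change was -0.67, -1.91 and -1.41 in dogs 1, 2 and 3.

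The order of COL1A1 levels on this probe ran from the sensitive phase of dog 3 (-1.97, SD 0.04, n = 3 arrays) and of dog 2 (-2.40, SD 0.03) down to a cluster of resistant groups. The sensitive phases of dogs 1 and 4, at -3.48 and -3.49, overlapped with each other, as did the resistant phases of dogs 1 and 4, at -4.13 and -4.24, and of dogs 4 and 2, the latter at -4.33. The resistant groups of dogs 1, 2 and 4 thus lay close together, although the sensitive group of dog 2 stood well above those of dogs 1 and 4.

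The other probes of COL1A1 gave other values. The changes of A_11_P147113 were 0.83, -0.27, -0.20 and 0.81 in dogs 1 to 4 (SE 0.19), where the dog 1 and dog 4 values had adjusted p of 0.00136 and 0.00203 in limma and were under 2-fold. In dog 1 that probe passed 2-fold when arrays were scaled to the median (1.01) or quantile-normalised (1.05). A_11_P0000019813 changed by -0.32 to 0.11 over the dogs and was called in none. In dog 3 its change turned from 0.03 to -0.93 within the slide of both phases and with slide as a fixed block, under 2-fold. The single resistant array on that slide read -6.86 and was not well above background, while the other resistant arrays of dog 3 read -5.42 and -5.43. A_11_P147258, well above background on 16 of 24 arrays, was called lower in dog 1 (at least 1.66-fold, adjusted p 0.0312 in limma), where its 3 resistant arrays were not well above background. That call ended within the slide of both phases, at -0.48. It also ended in 4 of the 6 fits that left out 1 array of dog 1, at -1.55, -1.45 and -1.45 without sensitive array 1, 2 or 3 and at -0.78 without resistant array 3. Over the 8 group means A_11_P050631 correlated with the other probes of its gene at -0.37, 0.04 and 0.06, a description of means that share dogs and arrays. The change of A_11_P147113 kept a similar distance from that of A_11_P050631 in every dog: the latter minus the former was -1.48, -1.65, -1.23 and -1.57 in dogs 1 to 4 (SE 0.20), with an exact two-sided permutation p of 0.1 in each dog, the smallest that 3 against 3 arrays can give.

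**Figure D2:**
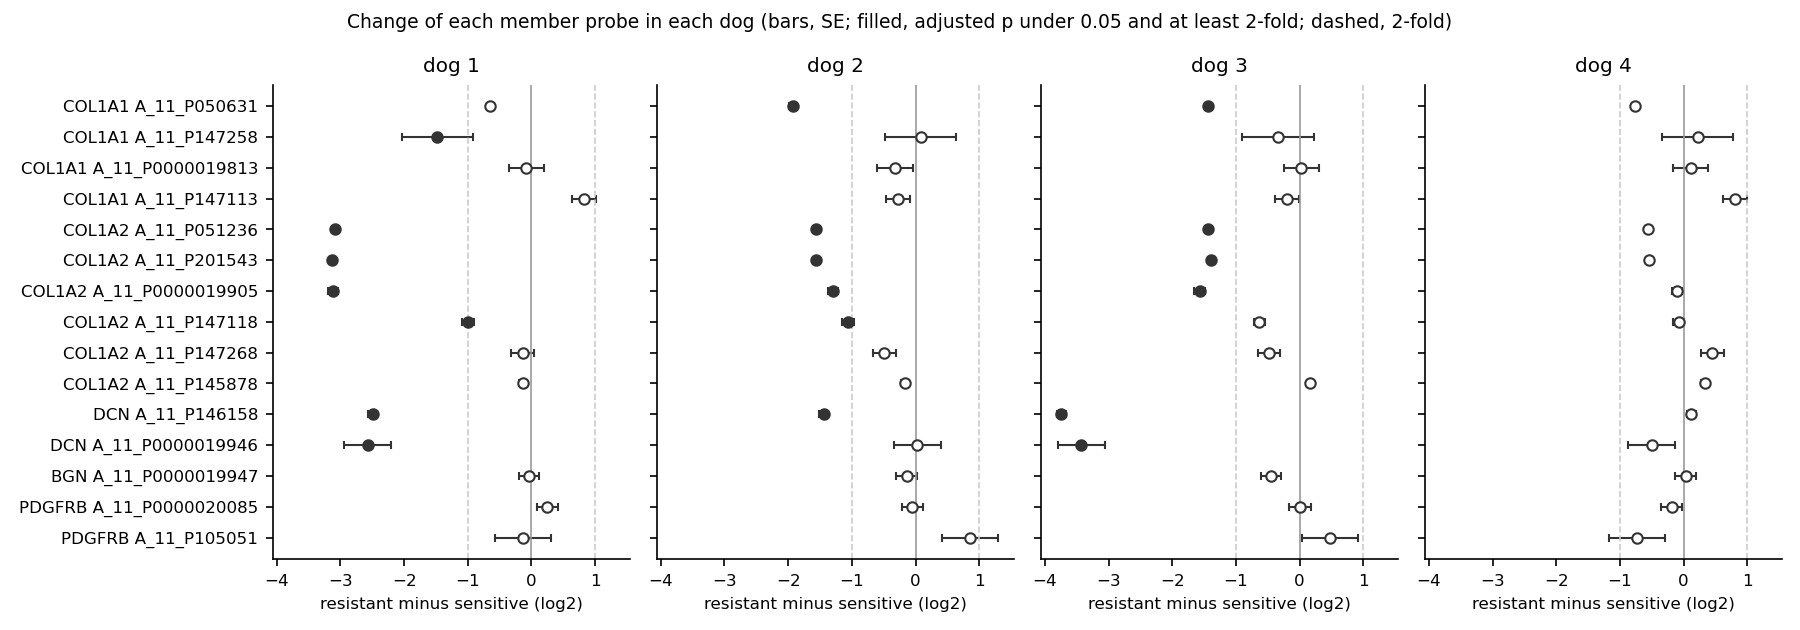
Resistant minus sensitive on the log2 scale (x axis) of each of the 15 probes (y axis, by gene) in dogs 1 to 4, with SE bars from limma; filled points have an adjusted p under 0.05 and at least 2-fold, and dashed lines mark 2-fold. Filled points number 7, 6 and 6 in dogs 1, 2 and 3 and 0 in dog 4, and probes of 1 gene are spread apart.

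COL1A2, the alpha 2 chain, was read most brightly by A_11_P201543, whose processed signal ran from 173 to 7440 over the arrays. In dog 1 the sensitive arrays read 0.80, 0.82 and 0.81 and the resistant arrays -2.29, -2.35 and -2.32. In dog 2 the sensitive arrays read 2.76, 2.72 and 2.66 and the resistant arrays 1.20, 1.14 and 1.08. The phases were far apart in both dogs beside the spread of their arrays. In dog 3 the sensitive arrays read 3.15, 3.22 and 3.23 and the resistant arrays 1.84, 1.79 and 1.80. In dog 4 the sensitive arrays read 1.85, 1.92 and 1.74 and the resistant arrays 1.31, 1.27 and 1.28. Dog 4 had the narrowest gap, and there too every sensitive array was higher. COL1A2 fell in 3 dogs in limma: dog 1 changed by -3.13 (SE 0.04, adjusted p 2.91e-20), dog 2 by -1.57 (adjusted p 2.75e-16) and dog 3 by -1.39 (adjusted p 6.49e-15). In dog 4 it was -0.55 (adjusted p 5.34e-09 in limma), under 2-fold. Within the slide of both phases it was -3.10, -1.51 and -1.36 in dogs 1, 2 and 3. In dog 1 only 0.634% of the tested probes had a lower change.

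By level, COL1A2 on A_11_P201543 was highest in the sensitive phase of dog 3 (3.20, SD 0.04) and of dog 2 (2.71, SD 0.05). The sensitive phase of dog 4 (1.84, SD 0.09) overlapped with the resistant phase of dog 3 (1.81, SD 0.03). The resistant phases of dog 4 (1.29) and dog 2 (1.14) lay above the sensitive phase of dog 1 (0.81), and the resistant phase of dog 1 (-2.32, SD 0.03) was lowest by a wide margin. Dogs differed widely within a phase, from 0.81 to 3.20 when sensitive and from -2.32 to 1.81 when resistant.

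Probe A_11_P051236, printed in 5 spots, gave nearly the same changes, -3.08, -1.56, -1.43 and -0.56 in dogs 1 to 4 (SE 0.03). The spread between its spots on an array had a median SD of 0.03 on the log2 scale. Its change differed from that of A_11_P201543 by at most 0.05 in size in any dog, with exact two-sided permutation p from 0.4 to 1. A_11_P0000019905 fell in 3 dogs, with changes of -3.11, -1.30 and -1.57 in dogs 1 to 3 (limma adjusted p 2.11e-16, 3.48e-11 and 6.55e-12), and dog 4 was at -0.10 (adjusted p 0.31). A_11_P147118 fell in dogs 1 and 2, by 2.00-fold and 2.09-fold, and its values for dogs 3 and 4 were -0.63 and -0.08. Its calls in dogs 1 and 2 ended under 4 other ways of scaling or background correction, where the changes were -0.56 to -0.84 and -0.78 to -0.94. They also ended without sensitive array 3 or resistant array 1 or 2 of dog 1 (-0.99, -0.95 and -0.97), and without resistant array 1 of dog 2 (-0.96).

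A_11_P147268 and A_11_P145878 of COL1A2 were called in no dog. The former changed by -0.14, -0.49, -0.48 and 0.45 in dogs 1 to 4 (SE 0.18) and the latter by -0.13, -0.17, 0.17 and 0.33 (SE 0.06). A_11_P145878 stayed between -1.35 and -0.47 on all 24 arrays, a span of 0.88 beside 5.58 for A_11_P201543. Both were well above background on every array. The change of A_11_P201543 minus that of A_11_P145878 was -3.00, -1.40, -1.56 and -0.88 in dogs 1 to 4 (SE 0.08), with an exact permutation p of 0.1 each, the smallest possible. Over the 8 group means A_11_P201543 correlated at 1.00, 0.97 and 0.97 with A_11_P051236, A_11_P0000019905 and A_11_P147118, and at 0.79 and 0.55 with A_11_P147268 and A_11_P145878. Where in the transcript each probe lies was not analysed here.

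**Figure D3:**
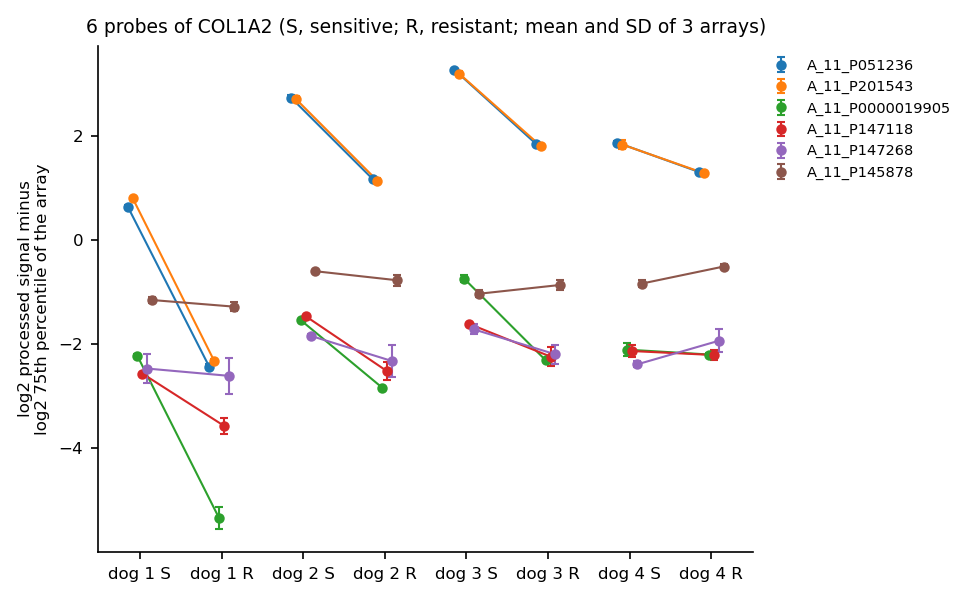
Mean and SD over 3 arrays of the scaled log2 signal (y axis) of the 6 COL1A2 probes in each dog and phase (x axis; S sensitive, R resistant), with a line joining the phases of a dog. The lines of A_11_P201543 and A_11_P051236 lie on each other and drop by 3.13 and 3.08 in dog 1, while A_11_P145878 stays between -1.35 and -0.47 on single arrays.

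The chains of type I collagen were compared within each dog. In dog 1 the change of COL1A1 (A_11_P050631) was 2.48 less negative than that of COL1A2 (A_11_P201543; SE 0.06). In dogs 2, 3 and 4 COL1A1 minus COL1A2 was -0.36, -0.05 and -0.21. The exact two-sided permutation p was 0.1 in dogs 1, 2 and 3 and 0.2 in dog 4, with 0.1 the smallest possible. These pairs of probes were chosen after their values were seen.

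DCN, or decorin, was read by A_11_P146158. In dog 1 the sensitive arrays read -2.96, -2.96 and -2.95 and the resistant arrays -5.35, -5.57 and -5.42. In dog 3 the sensitive arrays read -0.64, -0.69 and -0.66 and the resistant arrays -4.42, -4.44 and -4.36. In both dogs the phases were widely separated, and the sensitive phase of dog 3 stood above every other group. In dog 2 the sensitive arrays read -5.45, -5.56 and -5.40 and the resistant arrays -7.00, -6.73 and -6.99, none of the latter well above background. In dog 4 the sensitive arrays read -5.30, -5.21 and -5.25 and the resistant arrays -5.03, -5.20 and -5.17. Dog 4 was the single dog whose resistant arrays were the higher ones, by a small step without overlap, as in 32.1% of all probes there. The change was -2.49 in dog 1 (SE 0.07, adjusted p 8.34e-16) and -3.74 in dog 3 (SE 0.07, adjusted p 5.47e-18 in limma), and 0.258% of probes had a lower change in dog 3. In dog 2 DCN fell by at least 1.88-fold (adjusted p 1.35e-12), and in dog 4 the change was 0.12 (adjusted p 0.156 in limma). Within the slide of both phases the change was -2.39, -1.50 and -3.76 in dogs 1, 2 and 3. In dog 2 the call was lost with other background handling, at -0.13 under normexp and -0.32 on the raw signals of the authors' value table.

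The other DCN probe, A_11_P0000019946, was well above background on 5 of 24 arrays, 2 of them sensitive arrays of dog 1 and 3 of them sensitive arrays of dog 3. It fell by at least 1.65-fold in dog 1 (adjusted p 1.14e-05) and at least 4.19-fold in dog 3 (adjusted p 4.52e-07 in limma). Both calls ended under normexp (-0.41 and -0.70) and on the raw signals of the authors' value table (-0.55 and -0.99). In dogs 2 and 4 neither phase was above background, and no fold is given. The correlation of the DCN probes over the 8 group means was 0.96.

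The changes of DCN and COL1A2 were compared in the same way. In dog 3 the change of DCN was 2.35 more negative than that of COL1A2, whereas in dogs 1, 2 and 4 DCN minus COL1A2 was 0.64, 0.13 and 0.67 (SE 0.07). The exact permutation p was 0.4 in dog 2 and 0.1 in the other 3 dogs. The dog 2 difference rests on resistant arrays where DCN was not well above background. In order of groups, the sensitive phase of dog 2 came second for COL1A2 and seventh for DCN.

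BGN, the sister proteoglycan of DCN, was dim, with processed signals from 7.63 to 25.8, and was well above background on 22 of 24 arrays. In dog 3 the sensitive arrays of A_11_P0000019947 read -5.44, -5.29 and -5.59 and the resistant arrays -5.86, -6.07 and -5.74. These did not overlap, and the change was -0.45 (SE 0.16, adjusted p 0.0293 in limma), under 2-fold. In dogs 1, 2 and 4 the arrays of the phases overlapped, with changes of -0.04, -0.14 and 0.03. Group means ran from -5.44 to -6.23, and each group overlapped with the next in order. The change of DCN minus that of BGN was -2.45, -1.30, -3.29 and 0.08 in dogs 1 to 4 (SE 0.17), with an exact permutation p of 0.1 in dogs 1, 2 and 3 and 0.9 in dog 4. Here too the dog 2 difference rests on resistant arrays where DCN was not well above background.

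PDGFRB, the growth factor receptor, was well above background on all 24 arrays on A_11_P0000020085. In dog 1 the sensitive arrays read -2.56, -2.88 and -2.65 and the resistant arrays -2.56, -2.42 and -2.36. In dog 4 the sensitive arrays read -1.12, -0.83 and -1.30 and the resistant arrays -1.39, -1.43 and -1.01. The phases met at -2.56 in dog 1 and overlapped in dog 4, as they did in dogs 2 and 3. The changes were 0.25, -0.05, 0.01 and -0.19 in dogs 1 to 4 (SE 0.17), with limma adjusted p of 0.233, 0.834, 0.98 and 0.377. The order of levels followed the dogs: dog 4 (-1.08 sensitive, -1.28 resistant), dog 3 (-1.69 and -1.68), dog 2 (-1.94 and -1.98) and dog 1 (-2.70 and -2.45), with the phases of a dog next to each other. The dimmer probe A_11_P105051 had changes of -0.13, 0.85, 0.48 and -0.73 (SE 0.44), and its dog 2 change became a call (1.18) without sensitive array 2 of that dog. The PDGFRB probes correlated at 0.38 over the 8 group means.

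Across the 4 dogs the mean change was tested in limma with the dog as a block. It was -1.19 for COL1A1 (A_11_P050631; SE 0.26, unadjusted p 0.00521, adjusted p 0.625), -1.66 for COL1A2 (A_11_P201543; SE 0.43, p 0.0113, adjusted p 0.671) and -1.89 for DCN (A_11_P146158; SE 0.64, p 0.0309, adjusted p 0.763). BGN had a mean change of -0.15 (SE 0.14, limma adjusted p 0.846). PDGFRB on A_11_P0000020085 had an SE of 0.13 and a limma adjusted p of 0.996. None of the 15 probes passed an adjusted p under 0.05, nor did any of the 34550 tested (0.0%). At an unadjusted p under 0.05 there were 6 of 15, all lower, against 4.85% of all probes lower and 6.14% in either direction. They were 1 probe of COL1A1, 4 of COL1A2 and 1 of DCN. The COL1A1 probe and the 4 COL1A2 probes were lower in all 4 dogs, a direction shared by 7.36% of all probes. In a fit of the 24 arrays with the dog-and-phase group as a random block, 6 of the 15 passed, all lower, against 6.33% of all probes in either direction and 4.24% lower.

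The changes differed between dogs for 10 of the 15 probes by limma's F-test of dog by phase at an adjusted p under 0.05, against 80.5% of all probes. They were all 6 probes of COL1A2, both of DCN and 2 of COL1A1. The BGN probe and the 2 PDGFRB probes did not pass.

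Over the 8 group means the brightest probes of COL1A1 and COL1A2 correlated at 0.69, COL1A1 and DCN at 0.69, and COL1A2 and DCN at 0.39. BGN correlated with COL1A2 at 0.76 and with DCN at 0.29. PDGFRB correlated at 0.07, 0.51, -0.09 and 0.24 with COL1A1, COL1A2, DCN and BGN. These describe 8 means that share dogs, slides and depth of signal.

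Among 503 named genes that varied enough, those most like each member over the 8 means were listed by Pearson r. For COL1A2 they were GHR (the growth hormone receptor, 0.973), CXCL12 (a chemokine of lymph node stroma, 0.939) and TJP1 (a tight junction protein, 0.936). For COL1A1 they were HSD17B14 (a steroid dehydrogenase, 0.962), ZFPM2 (a cofactor of GATA factors, 0.930) and ABCC5 (a membrane transporter, 0.906). For DCN the chemokine CCL20 led (0.913), followed by TACR2 (0.846) and HEY1 (0.841). For BGN they were FLT3 (0.947), the cytokine IL33 (0.947) and TMEM47 (0.936), and for PDGFRB they were AVPR2 (0.915), GYPC (0.902) and ANGPT2 (0.897). The BGN means ran only from -6.23 to -5.44, and the arrays of each BGN group overlapped with those of the next in order. Likeness of means did not carry equal changes: GHR changed by -0.20 in dog 3 and -0.08 in dog 4, where COL1A2 changed by -1.39 and -0.55.

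Of 141 other genes listed for matrix, matrix enzymes, PDGF and fibroblast growth factors and matrix receptors, 15 could be named and measured. Called lower and higher were 3 and 0 of the 15 in dog 1, 4 and 1 in dog 2, 4 and 0 in dog 3, and 0 and 1 in dog 4. Over all tested probes 7.75%, 10.1%, 5.45% and 1.57% were called lower in dogs 1 to 4, and 3.57%, 3.53%, 1.28% and 3.77% higher. The median changes of the 15 genes were -0.21, -0.23, -0.33 and 0.09, beside the all-probe medians given above. The other measured collagens, COL2A1, COL6A3 and COL7A1, were called in no dog, nor was the large proteoglycan ACAN. No collagen-processing or TGF-beta pathway gene was named here.

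TIMP2, an inhibitor of matrix metalloproteinases, fell in dogs 1, 2 and 3 (-1.11, -2.29 and -1.02, SE 0.04), and its dog 4 value was -0.18. Its calls in dogs 1 and 3 ended with median scaling (-0.93 and -0.94) and under normexp (-0.95 and -0.69). TIMP1, another inhibitor, fell in dogs 1 and 3 (-1.01 and -1.14, SE 0.18), with values of -0.47 and -0.33 in dogs 2 and 4. The dog 1 call of TIMP1 ended without sensitive array 3 (-0.98) or resistant array 2 (-0.71), and both its calls ended within the slide of both phases (-0.51 and -0.99). MMP9, a gelatinase abundant in neutrophils, fell in dogs 1 and 3 (-1.97 and -4.91) and rose in dog 2 (2.52, SE 0.11). HGF, a growth factor made by mesenchymal cells, fell by at least 1.89-fold in dog 2 and at least 2.69-fold in dog 3. Those HGF calls ended under normexp (-0.25 and -0.67) and on the authors' value table (-0.43 and -0.91). In dog 4 HGF was well above background on 0 sensitive arrays and 1 resistant array and rose by at least 1.02-fold. That call ended without sensitive array 2 or 3 or resistant array 2 or 3, with limma adjusted p of 0.0943, 0.153, 0.0616 and 0.0921.

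Of 11 fibroblast markers 6 were measured, namely the 5 genes and PDPN, so their counts largely repeat the calls of those genes. Called lower were 3, 4, 3 and 0 of the 6 in dogs 1 to 4, beside 7.75%, 10.1%, 5.45% and 1.57% of all tested probes. The sixth, the membrane glycoprotein PDPN, fell in dogs 1 and 2 (-1.55 and -2.77, SE 0.18), and its changes in dogs 3 and 4 were -0.20 and 0.13. The summed signal of the 6 markers, as multiples of the 75th percentile, was 2.16 to 2.19 on the sensitive arrays and 0.483 to 0.498 on the resistant arrays of dog 1. It was 6.90 to 7.29 and 2.44 to 2.72 in dog 2, 10.1 to 10.6 and 3.89 to 4.09 in dog 3, and 3.88 to 4.50 and 2.90 to 3.03 in dog 4, sensitive first. COL1A2 alone supplied 39.9% to 42.3% of this sum on the resistant arrays of dog 1 and 79.4% to 92.6% on all other arrays. Outside the resistant phase of dog 1 the sum thus largely repeats the values of COL1A2.

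Markers of other cells moved in some of the same dogs. Of 6 lymph node stroma markers 5 were measured. Called lower were 2, 4, 3 and 2 in dogs 1 to 4, beside 7.75%, 10.1%, 5.45% and 1.57% of all probes. CXCL12 fell in all 4 dogs (-2.77, -1.77, -1.88 and -1.69, SE 0.05). CCL19, a chemokine of the T-cell zone, rose in dog 1 (2.50) and fell in dogs 2, 3 and 4 (-2.88, -2.66 and -1.28). The summed stroma signal was 0.660 to 0.682 sensitive and 0.933 to 0.966 resistant in dog 1, 4.50 to 4.77 and 1.49 to 1.52 in dog 2, 6.28 to 6.49 and 1.84 to 1.89 in dog 3, and 1.15 to 1.25 and 0.844 to 0.892 in dog 4. The higher resistant sum in dog 1 rests on CCL19, which supplied 15.5% to 16.5% of it on sensitive and 62.4% to 64.1% on resistant arrays. In that dog IL7 fell as well (-1.05), and VCAM1 was at -0.66 and CCL21 at 0.58, both under 2-fold.

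Of 11 genes listed for endothelium 4 were measured. Called lower were 2, 2, 2 and 1 in dogs 1 to 4, beside 7.75%, 10.1%, 5.45% and 1.57% of all probes. KDR, a receptor for vascular endothelial growth factor, fell by at least 2.54-fold in dog 1 and changed by -2.08 and -2.91 on the log2 scale in dogs 2 and 3, while VWF and SELE were called in no dog. F3, or tissue factor, fell in all 4 dogs (-2.76, -3.09, -1.92 and -1.65, SE 0.63). It was the single call from this list in dog 4 and stood beside KDR in dogs 1, 2 and 3. Its signal cleared the background on only 1 of 3 resistant arrays in dogs 1 and 4. The endothelial sum was 2.28 to 2.36 sensitive and 1.91 to 1.98 resistant in dog 1, 2.32 to 2.51 and 2.22 to 2.30 in dog 2, 3.28 to 3.47 and 2.00 to 2.51 in dog 3, and 2.82 to 3.08 and 3.27 to 3.32 in dog 4. The phases did not overlap, and the resistant phase was the higher one in dog 4.

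Of 7 T-cell markers 5 were measured. Against shares of 7.75%, 10.1%, 5.45% and 1.57% over all probes, the markers called lower numbered 3, 5, 3 and 0 in dogs 1 to 4. Their sum was 0.394 to 0.459 sensitive and 0.248 to 0.275 resistant in dog 1, 4.41 to 4.65 and 0.273 to 0.284 in dog 2, 0.482 to 0.527 and 0.315 to 0.429 in dog 3, and 0.350 to 0.415 and 0.502 to 0.537 in dog 4. On the resistant arrays CTLA4 and ICOS were never well above background in dog 1, nor were CD28 and ICOS in dog 2. The dog 1 calls include ICOS (-1.17), which was not well above background on any sensitive array of that dog either. Higher calls made up 3.53% of all probes in dog 2. The 4 neutrophil markers, MMP9 among them, had 4 called lower in dog 1, 2 called higher in dog 2, 3 called lower in dog 3 and none called in dog 4. Their sum was 2.26 to 2.45 sensitive and 0.231 to 0.335 resistant in dog 1, 0.124 to 0.175 and 1.20 to 1.23 in dog 2, 4.03 to 4.11 and 0.0868 to 0.211 in dog 3, and 0.575 to 0.665 and 0.513 to 0.541 in dog 4. The neutrophil sum moved opposite to the collagen genes in dog 2.

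The B-cell sum of MS4A1 and CD40, 2 of 10 listed markers, stayed between 54.7 and 82.7 over the 24 arrays. DES, the single measured gene of 9 pericyte and smooth muscle markers, was called lower in dog 2 alone (-1.44). CD163, the single measured gene of 6 macrophage markers, was called lower in dog 3 alone (-1.33), as was the fat marker ADIPOQ (-1.89), one of 2 of 5 fat markers measured. No gene of the 6 epithelial markers was named here. The part of these cell types in the changes of COL1A1, COL1A2 and DCN was not tested.

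**Figure D4:**
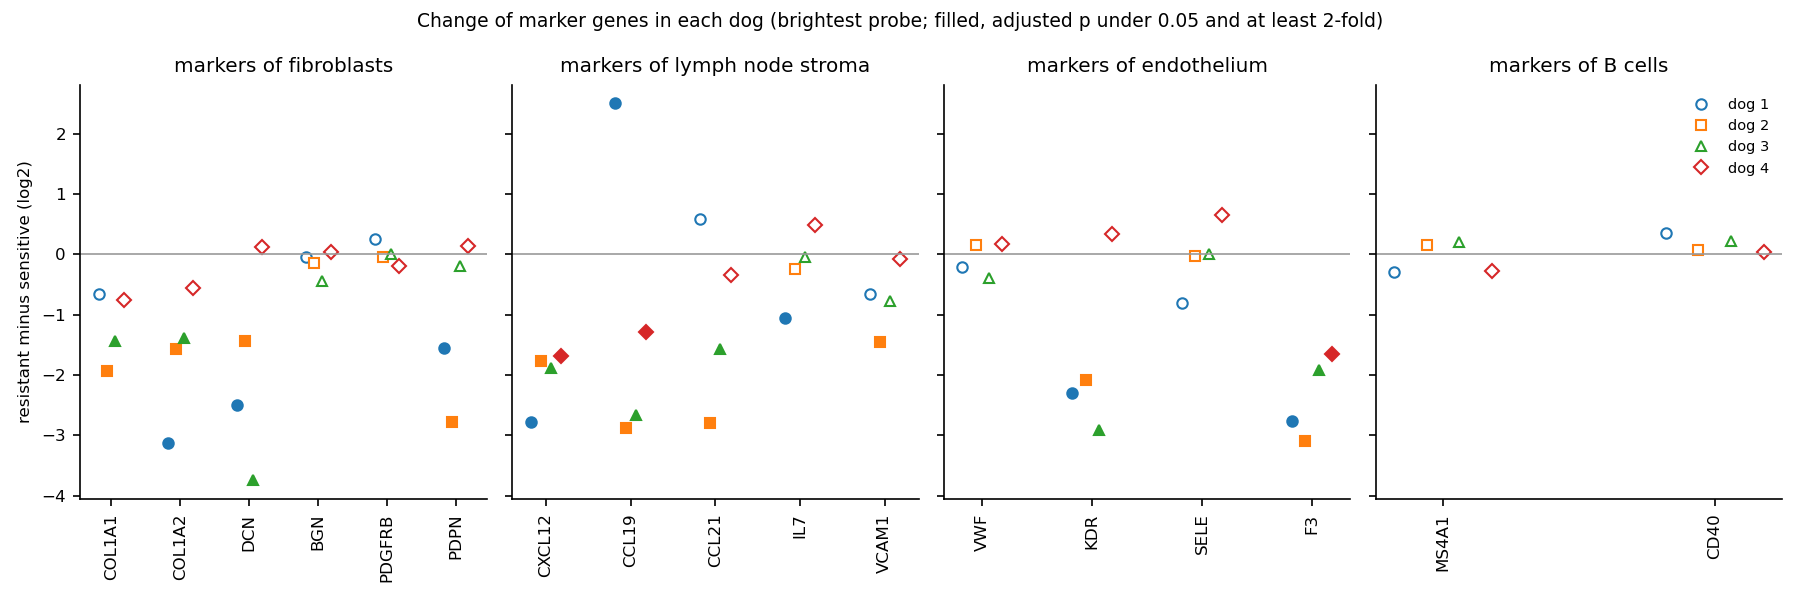
Resistant minus sensitive on the log2 scale (y axis) of measured markers of fibroblasts, lymph node stroma, endothelium and B cells (x axis, genes; colours and shapes, dogs 1 to 4), brightest probe of each gene; filled symbols have an adjusted p under 0.05 in limma and at least 2-fold. COL1A2 and DCN are filled in dogs 1, 2 and 3, CXCL12 is filled in all 4 dogs at -2.77, -1.77, -1.88 and -1.69, and MS4A1 and CD40 are filled in none.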

How the data were processed

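Per the labels' protocols, aspirated cells were kept in RNAlater, RNA was column-purified with DNase and labelled with Cy3 after low-input amplification. Spot intensity was deposited by the authors as output of Agilent Feature Extraction 10.7.3.1, per the file headers. The processed signal is already background-subtracted and not normalised between arrays. The authors' value table equals the raw median signal of each spot exactly, so it is linear and uncentred.

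Control spots (1417 of 45220) and outlier spots were left out, repeated spots averaged on the log2 scale, each array scaled to its 75th percentile and each probe kept separate. A probe was tested if well above background on all 3 arrays of 1 dog and phase. Accessions were matched to a RefSeq table of UU_Cfam_GSD_1.0 for names alone (832 of 35908 identifiers matched). The array's genome build was not used here. Unmatched list genes were not analysed here.

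limma 3.58.1 in R 4.3.3 was fitted over all 34550 probes, two-sided with Benjamini-Hochberg adjustment: within a dog on 24 arrays in 8 groups with a shared spread, and across dogs on the 8 group means, blocking on dog, since both phases come from 1 animal. The scripts were tested on simulated data. A fold written "at least" sets the brighter phase's mean against, per array of the dim phase, the higher of the lowest signal well above background and the probe's own. Other matrix genes were named if called in at least 2 dogs or changed by a mean of 2-fold or more; a gene's brightest probe stood for it outside the 5 genes. Genes most like a member were the 3 of highest r. Singled-out uncalled or once-called genes were named after their values were seen. The members, lists and naming rules were chosen with earlier results of these data known. Array number limits precision.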

Additional observations from a re-analysis of the deposited data

Results flagged for a closer look

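The change from sensitive to resistant phase differed between the 4 dogs, by limma's F-test of dog by phase, for 10 of the 15 probes, where 80.5% of all probes did. For COL1A1 the adjusted p was 1.57e-11 on A_11_P050631 and 0.000819 on A_11_P147113. For COL1A2 it was 3.61e-16 on A_11_P201543, 2.26e-17 on A_11_P051236, 2.89e-13 on A_11_P0000019905, 7.42e-06 on A_11_P147118, 0.00692 on A_11_P147268 and 4.13e-05 on A_11_P145878. For DCN it was 9.08e-16 on A_11_P146158 and 2.15e-05 on A_11_P0000019946. This limma test takes the spread between arrays of a dog and phase as its error, and dog 4 differs from the others also in the slide and scan session of its resistant arrays.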

How the results depend on the processing

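Counts of called probes out of 15 changed under several settings, and some of these changes follow. In dog 1 the count went from 7 to 4 under normexp background correction, 4 on the authors' value table and 4 with probes well above background on all 24 arrays, where only 9 probes were left. In dog 2 it went from 6 to 3 under normexp. On the value table dog 2 lost the calls of DCN on A_11_P146158 (-0.32) and of COL1A2 on A_11_P147118 (-0.89). The filter on all 24 arrays left out that DCN probe, which was well above background on 21 of them. In dog 3 the count went from 6 to 4 under normexp, 5 on the value table and 4 with the filter on all 24 arrays. Across dogs it went from 0 to 6 in the fit of 24 arrays with the group as a random block, where arrays of a group correlated at 0.819 and calls over all probes went from 0 to 2186 of 34550. Leaving out 1 array gave 5 to 6 calls in dog 1, 5 to 7 in dog 2, 6 in dog 3 and 0 in dog 4, and leaving out 1 dog gave 0 across dogs. COL1A1 on A_11_P050631 lost its dog 3 call under normexp (-0.93) and COL1A2 on A_11_P0000019905 its dog 2 call (-0.98). For the 15 probes together with those of TIMP1, TIMP2, MMP9 and HGF, no called change turned its sign. Changes of these probes that were not called did so 49 times under other settings, 25 times without 1 array and 6 times without 1 dog. The count of dog-by-phase differences ran from 7 to 13 over the alternatives.

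Scaling to the median moved the median change of all probes in dog 1 from -0.05 to 0.13. Calls over all probes in dog 1 went from 3909 to 1072 under normexp, 1521 on the value table and 1795 with the filter on all 24 arrays. In dog 2 they went from 4698 to 2018, 2622 and 2591, in dog 3 from 2327 to 789, 1066 and 1034, and in dog 4 from 1845 to 201, 298 and 535, or 3021 with no filter. Higher calls were 1232 of 3909 in dog 1 and 1797 of 3931 with median scaling, and in dog 2 1221 of 4698 and 1832 of 4898. In dog 4 they were 1304 of 1845, and 810 of 1692 with quantile normalisation.

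Replicate numbers did not pair the arrays: of 12 pairs 1 correlated above 0.1 (range -0.213 to 0.173), and 5 of 12 sensitive arrays matched their own number best. With the replicate number as a block the counts were 6, 6, 6 and 0 in dogs 1 to 4 and 10 dog-by-phase differences. COL1A1 on A_11_P147258 in dog 1 lost its call there (adjusted p 0.0701 in limma; 0.000740 to 0.692 over its other settings). Slide as a fixed block could not be fitted for dog 4. As a random block it was fitted there, with 1367 of 34550 probes called, but slide and phase still cannot be told apart in that dog. Normexp was run on the median signal, chosen after seeing the data. Dim probes of DCN, BGN, HGF and COL1A1 give bounds or nothing where they fall to background.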
